A study of Mus musculus with 24 samples.

Results

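The genes described here encode the proteins of the cytosolic and of the mitochondrial ribosome. They were chosen by name, biotype and a minimum level, without regard to any difference between groups: rows of the table with the Ensembl biotype protein-coding, a symbol of the Rpl, Rps, Rplp or Rpsa kind (cytosolic) or of the Mrpl or Mrps kind (mitochondrial), and a mean above 5 normalized counts. The rule gave 161 of the 17270 genes in the table, 84 cytosolic and 77 mitochondrial, and no named gene was lost to the limit on the mean. Of the 222 rows with such a name, 48 carried a biotype other than protein-coding and were left out. Also left out were 3 protein-coding rows with "-ps" in the name and the 10 kinase genes of the Rps6k kind. By symbol, 33 cytosolic members belong to the small and 50 to the large subunit, and 29 mitochondrial members to the small and 48 to the large subunit. The remaining cytosolic member, Rps19bp1, is held by the rule through its symbol. It encodes a protein that binds Rps19 and is no part of the ribosome. Mrps36, counted with the small subunit of the mitochondrial ribosome by its symbol, has since been assigned to the 2-oxoglutarate dehydrogenase complex.

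The cytosolic ribosome translates all mRNAs that leave the nucleus. Its small subunit reads the mRNA, its large subunit joins amino acids, and the stalk of the large subunit recruits translation factors. The mRNAs of its proteins typically begin with a run of pyrimidines, the terminal oligopyrimidine (TOP) motif, through which mTORC1 controls their translation. The mitochondrial ribosome translates only the few mRNAs of the mitochondrial genome, which encode subunits of the respiratory chain, but its proteins are encoded in the nucleus, made in the cytosol and imported.

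RNA was sequenced from microvessels of the mouse brain, a preparation that holds mainly endothelial cells with attached pericytes and endfeet of astrocytes. Male C57BL/6J mice aged 10 to 12 weeks underwent transient middle cerebral artery occlusion (tMCAO) with a filament for 60 min, a model of ischemic stroke with reperfusion, or sham surgery, in which the filament was withdrawn at once. Vessels were taken 24 h or 7 days later from the ipsilateral (operated side) and the contralateral hemisphere, which gave 8 groups of 3 libraries, 24 in all. Each library held vessels pooled from 3 whole hemispheres, so that no library is a single animal and infarct and surrounding tissue were not separated. The mice carried no engineered allele. The groups are called tMCAO or sham, ipsilateral or contralateral, 24 h or 7 days, and the libraries of a group are given in the order of their numbers.

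Values are normalized counts: reads per gene divided by the authors' size factor for the library and rounded. They summed to between 15924780 and 18787932 per library. Libraries of 1 group correlated with r between 0.967 and 0.988 over the tested genes. A member was called regulated with a Benjamini-Hochberg adjusted p under 0.05 over all 15982 tested genes (limma on log2 values after adding 1) and a change of more than 1.5-fold in either direction, the limits that the study used, the second set on the log2 scale. Reads that matched several genes had been excluded, so that the level of a ribosomal protein gene with near-identical copies elsewhere in the genome is uncertain.

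A window of 30 bases around the transcription start shows the 5′ end of the genes on which the results below turn. Starts from RefSeq on build GRCm38.p6 were matched to 132 of the 161 members, 64 cytosolic and 68 mitochondrial. The starts used in these vessels were not measured. Some members have several annotated starts, with and without a run as defined below. Each window runs 5′ to 3′ on the strand of the gene, with 15 bases before and 15 from the start. Capitals mark a run of at least 5 C or T that opens with C within 5 bases of the start. A stretch of C and T that begins farther upstream, as in Rpl7a, is marked only from its first C within these 5 bases. The first set holds cytosolic members: Rps2 and Rpl7a, which rose at 24 h, Rpsa and Rplp0, which rose and hold no such run in their windows, the pair Rps27 and Rps27l, which differed in their response, and Rps6. The second set holds mitochondrial members with a large rise and, last, Mrpl1, which had the lowest fold change of its class.
Rps2 (chr17:24720048-24720077, plus strand): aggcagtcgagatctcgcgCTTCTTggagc
Rpl7a (chr2:26910792-26910821, plus strand): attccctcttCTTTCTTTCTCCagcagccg
Rpsa (chr9:120127751-120127780, plus strand): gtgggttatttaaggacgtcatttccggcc
Rplp0 (chr5:115559452-115559481, plus strand): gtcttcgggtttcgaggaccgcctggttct
Rps27 (chr3:90213634-90213663, minus strand): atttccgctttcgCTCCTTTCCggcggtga
Rps27l (chr9:66946071-66946100, plus strand): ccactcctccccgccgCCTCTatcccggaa
Rps6 (chr4:86857353-86857382, minus strand): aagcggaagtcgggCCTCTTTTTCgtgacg
Mrpl52 (chr14:54426894-54426923, plus strand): tgccggggccacgcccaCTTCCggttccct
Mrpl17 (chr7:105811073-105811102, minus strand): tactgcgcatgcgtCCTCTgagacgtgcct
Mrps18b (chr17:35916426-35916455, minus strand): cattgcggggcgtgtccttggcccacccta
Mrps22 (chr9:98601665-98601694, minus strand): cgagccggaagttgctctatcgattccggc
Mrpl1 (chr5:96210100-96210129, plus strand): ttcgcatttccgtgcagttgaaacccggga

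In every group the cytosolic class stood far above the mitochondrial class. The median member had 4257 normalized counts in the cytosolic and 468 in the mitochondrial class, against 317 over all tested genes. Lengths here are those of all annotated exons of a gene merged, which can exceed the length of any single transcript. The median merged length was short, 1754.5 and 2533 bases, against 4198 over all tested genes. Per kb of merged exons the median level was 2335 normalized counts in the cytosolic and 174 in the mitochondrial class. The highest cytosolic levels per kb were those of the stalk gene Rplp1 (25829), Rps15 (15571) and Rps29 (10663) and the lowest those of the paralogs Rpl3l (3.91), Rpl39l (14.2) and Rpl36al (17.1). In the mitochondrial class Mrpl52 (679), Mrps21 (640) and Mrpl41 (599) were highest per kb and Mrpl23 (17.5), Mrps10 (28.7) and Mrps36 (38.4) lowest. In sham ipsilateral libraries at 24 h the cytosolic members together took 1.82, 1.98 and 2.05% of all normalized counts, and the mitochondrial members took between 0.19 and 0.21%. In tMCAO ipsilateral libraries at 24 h the cytosolic share was 2.76, 2.97 and 2.67%, and the mitochondrial share lay between 0.27 and 0.29%. Both classes thus stood above sham in each of the 3 libraries. At 7 days the cytosolic share was 2.40, 2.44 and 2.64% in sham and 3.52, 2.73 and 3.02% after tMCAO, again without overlap of the groups, with the first tMCAO library the highest of the 24.

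The mean log2 level over the cytosolic members was 11.11, 11.24 and 11.38 in the sham ipsilateral libraries at 24 h and 11.89, 11.93 and 11.70 after tMCAO. For the mitochondrial members these values were 8.48, 8.61 and 8.57 in sham and 9.10, 9.20 and 9.03 after tMCAO. At 7 days the cytosolic mean log2 level was 11.53, 11.54 and 11.81 in sham and 12.30, 11.78 and 11.91 after tMCAO, so that the second tMCAO library lay below the third sham library. The mitochondrial mean log2 level at 7 days was 8.78, 8.76 and 8.83 in sham and 9.07, 8.81 and 8.78 after tMCAO, and only the first tMCAO library stood above all sham libraries.

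The difference between the class means had its highest group mean in the tMCAO ipsilateral libraries at 7 days. It was 2.69 ± 0.11 on the log2 scale (SD, n = 3) in sham and 2.73 ± 0.06 in tMCAO ipsilateral libraries at 24 h, when both classes stood higher by a similar amount. At 7 days it was 2.83 ± 0.12 in sham and 3.11 ± 0.13 in tMCAO ipsilateral libraries. The contralateral groups lay between 2.68 ± 0.08 (sham, 24 h) and 2.84 ± 0.15 (tMCAO, 7 days). The lowest tMCAO ipsilateral library at 7 days, with 2.97, lay just below the highest sham library, also 2.97 after rounding, and below the highest contralateral tMCAO library with 3.01. These differences over the members are given as a description and were not tested.

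**Figure D1:**
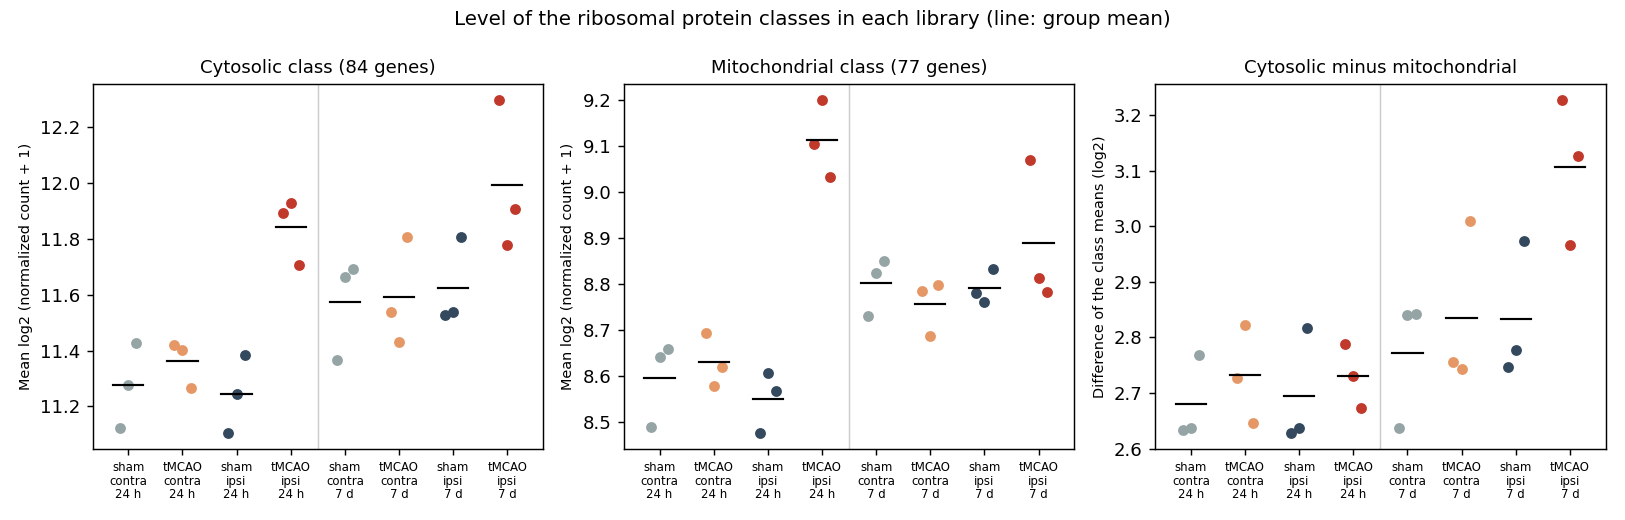
Mean log2 level (normalized count + 1) of the 84 cytosolic and the 77 mitochondrial members in each of the 24 libraries, and the difference between the 2 class means, by group, with 1 point per library and a bar at the group mean. Both classes are highest in tMCAO ipsilateral libraries, the mitochondrial class at 24 h, and the difference is highest at 7 days (3.11 ± 0.13, SD, n = 3).

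The order of the groups differed between the classes. Of the 84 cytosolic members, 63 had their highest group mean in tMCAO ipsilateral vessels at 7 days and 21 in those at 24 h. Of the 77 mitochondrial members, 67 had it in tMCAO ipsilateral vessels at 24 h, 7 at 7 days, 2 in sham contralateral vessels at 7 days and 1 in tMCAO contralateral vessels at 24 h. Most members were also higher at 7 days than at 24 h in sham vessels, as given below, and that shift enters this order. In bulk vessels a change in the share of a cell type and a change in the RNA per cell cannot be told apart.

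The first comparison asked what the ischemic hemisphere showed against sham at 24 h. All 84 cytosolic and all 77 mitochondrial members had a positive log2 fold change, with medians of 0.55 and 0.50, against -0.02 over all tested genes. Of the cytosolic members 36 (of 84) were called higher and 0 lower, and of the mitochondrial members 25 (of 77) were called higher and 0 lower. Over all tested genes 10% were called higher and 8.23% lower. The tMCAO libraries all lay above the sham libraries for 76 cytosolic and 75 mitochondrial members, against 25% of all tested genes. By subunit as the symbols give it, 9 of 33 small and 26 of 50 large subunit genes of the cytosolic ribosome were called (median log2 fold changes 0.50 and 0.61), and 8 of 29 and 17 of 48 of the mitochondrial ribosome (0.49 and 0.52). A correction was made for the merged exon length and for the GC content of the longest transcript. With it the cytosolic count fell to 16 and the mitochondrial count to 21, with medians of 0.38 and 0.41. Of the 15982 tested genes 2597 were then called in either direction, against 2919 before, and the median over all of them was -0.004. Over all tested genes the 24 h log2 fold change had a Spearman correlation of -0.28 with merged exon length (across genes, n = 15966, as a description). Within the classes it was -0.16 (cytosolic) and -0.02 (mitochondrial).

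Rps2, a small subunit protein near the path by which mRNA enters, had the largest called rise of the cytosolic class. Its normalized counts were 3581, 3925 and 4400 in sham ipsilateral libraries at 24 h and 11843, 14072 and 9876 after tMCAO, while the 6 contralateral libraries at 24 h lay between 3516 and 4653. The tMCAO ipsilateral libraries stood apart from all of these. The log2 fold change against sham was 1.58 ± 0.15 (SE, limma adjusted p = 5.77e-07). Rpsa, a small subunit protein also known as the laminin receptor, had 4059, 4445 and 4920 normalized counts in sham and 9650, 11274 and 8579 after tMCAO (log2 fold change 1.13 ± 0.15, limma adjusted p = 1.64e-05). Rpl7a, of the large subunit, had 3242, 3694 and 3918 in sham and 8441, 8545 and 6972 after tMCAO (1.14 ± 0.12, limma adjusted p = 2.8e-06). Neither gene showed any overlap of the groups.

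The stalk genes rose together. Rplp0, the base of the stalk, had 5474, 5998 and 6809 normalized counts in sham and 12506, 13662 and 10916 in tMCAO ipsilateral libraries at 24 h, a log2 fold change of 1.02. Rplp1 and Rplp2, the paired acidic proteins that contact the elongation factors, rose by 0.83 and 0.76 on the log2 scale, and Rpl12, which sits beside the stalk base, by 1.11. Among members with other known roles, Rpl10, which joins the large subunit late in assembly, and Rpl11, which binds Mdm2 when ribosome assembly fails, rose by 0.70 and 0.72. Rpl5, the partner of Rpl11 in the particle with 5S rRNA, had 0.39 (limma adjusted p = 0.0174, below the fold limit). Rps6, the target of the S6 kinases, had 0.41 (limma adjusted p = 0.0914) and Rps27a, made as a fusion with ubiquitin, had 0.52 (limma adjusted p = 0.0201), and neither was called.

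At the other end of the cytosolic class, Rps27 and Rps14 overlapped between the groups. Rps27 had 5998, 6460 and 7301 normalized counts in sham and 6897, 7225 and 6768 after tMCAO at 24 h (log2 fold change 0.08 ± 0.16, limma adjusted p = 0.725). Rps14 had 7944, 8346 and 9385 in sham and 10055, 9426 and 9111 after tMCAO (0.16 ± 0.17, limma adjusted p = 0.507). The paralog Rpl22l1 had a log2 fold change of 0.14, the second lowest. None of the 3 genes was called in the libraries in which Rps2 rose.

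Rps27l, a known target of p53, differed from its near relative Rps27. Rps27l had 656, 742 and 732 normalized counts in sham and 1512, 1663 and 1438 in tMCAO ipsilateral libraries at 24 h, a log2 fold change of 1.11 ± 0.13 (limma adjusted p = 6.77e-06). Its share of the pair's normalized counts was 9.76 ± 0.60% (SD, n = 3) in sham and 18.1 ± 0.60% after tMCAO, where the libraries lay between 17.5 and 18.7%. At 7 days the share was 10.2 ± 1.16% in sham and 9.95 ± 0.99% after tMCAO, and in the 4 contralateral groups the means lay between 10.4 and 10.6%. The rise in share was thus seen in the tMCAO ipsilateral group at 24 h and in no other group.

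Among the other pairs, Rpl7l1, a paralog with a part in making the large subunit, took 15.0 ± 0.34% (SD, n = 3) of the counts of Rpl7 and Rpl7l1 in sham ipsilateral libraries at 24 h and 18.2 ± 1.52% after tMCAO. At 7 days it took 13.6 ± 0.78% in sham and 10.1 ± 1.41% after tMCAO, the opposite direction, and the groups did not overlap at either time. The share of Rpl22l1 in the pair with Rpl22 was 17.9 ± 0.20% in sham and 16.1 ± 1.29% after tMCAO at 24 h. Rpl3l, the form of Rpl3 known from muscle, was near the detection limit with 0, 3 and 3 normalized counts in sham and 75, 2 and 2 after tMCAO. Its log2 fold change, the highest of the class with 1.81 ± 0.86, came from 1 library (limma adjusted p = 0.115). Rpl36al had 11, 23 and 19 in sham and 47, 34 and 36 after tMCAO (1.14 ± 0.38, limma adjusted p = 0.027), a call at low counts that was lost without 1 library and after the length correction. Rpl39l, with a mean of 11.8 normalized counts, was not called at either time.

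**Figure D2:**
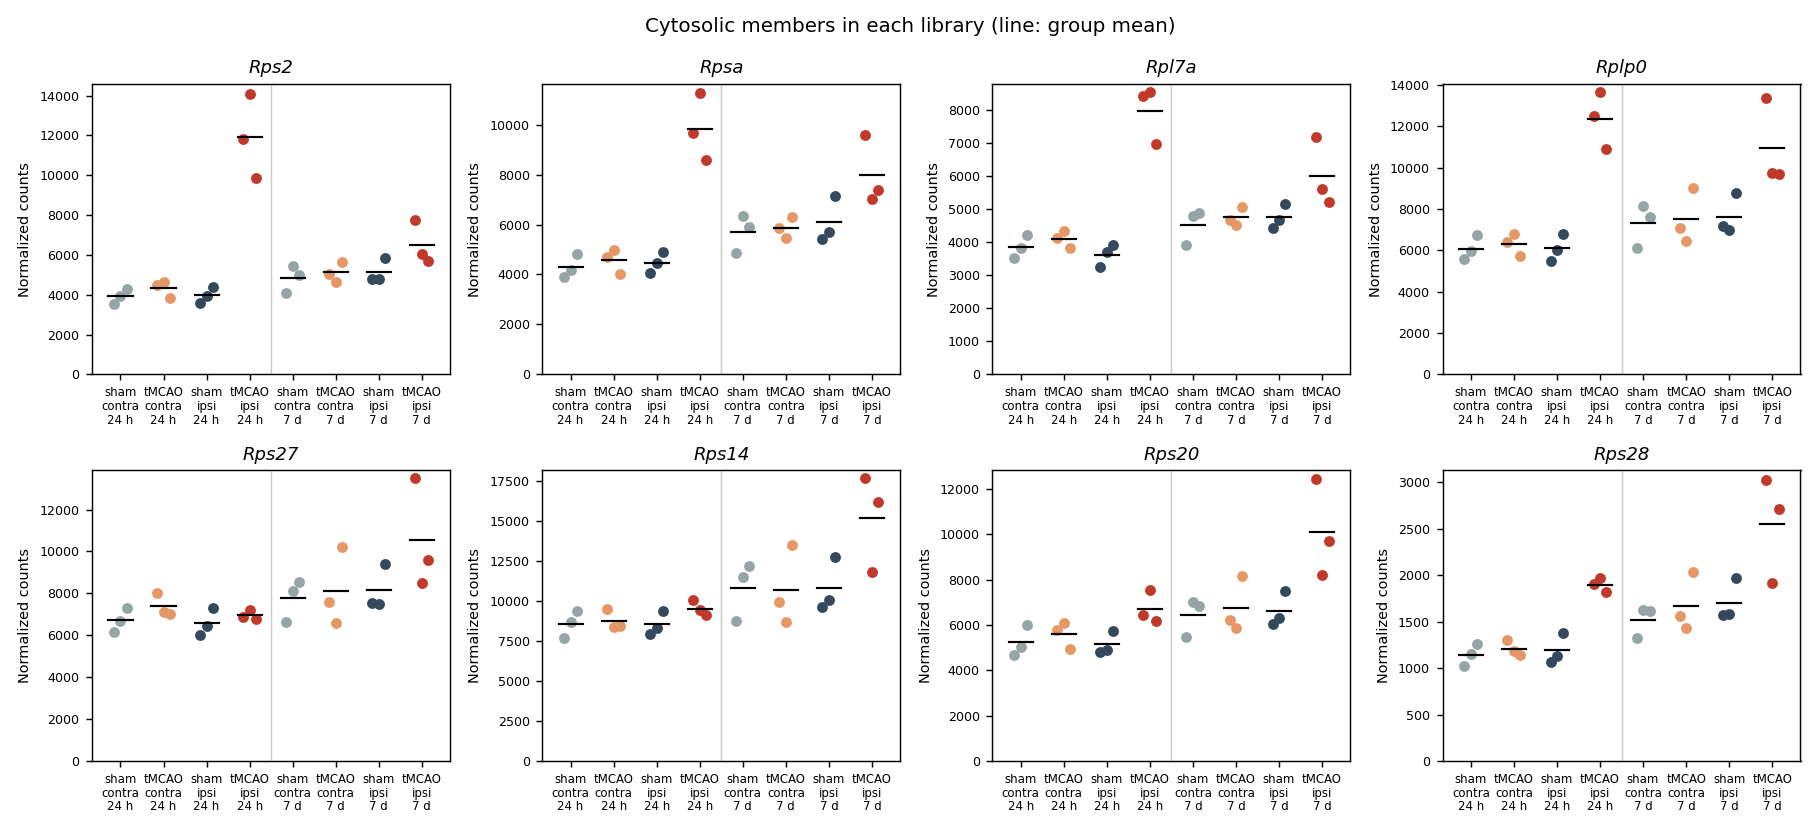
Normalized counts (linear axis from 0) of Rps2, Rpsa, Rpl7a, Rplp0, Rps27, Rps14, Rps20 and Rps28 in each library, by group, with 1 point per library and a line at the group mean. Rps2 and Rpl7a have their highest mean in the tMCAO ipsilateral libraries at 24 h and Rps27, Rps14, Rps20 and Rps28 in those at 7 days, where the first tMCAO library is the highest in all 8 panels.

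In the mitochondrial class Mrps28, of the small subunit, had the largest rise at 24 h. Its normalized counts were 137, 188 and 159 in sham and 458, 522 and 416 in tMCAO ipsilateral libraries, and between 144 and 174 in the 6 contralateral libraries at 24 h. The tMCAO ipsilateral libraries stood above all of them, with a log2 fold change against sham of 1.53 ± 0.15 (limma adjusted p = 6.84e-07). Mrpl52, of the large subunit and the member of the class with the highest level per kb of merged exons, had 477, 615 and 540 in sham and 1564, 1775 and 1335 after tMCAO (1.51 ± 0.15, limma adjusted p = 1.3e-06). Mrpl17 had 711, 794 and 803 in sham and 1723, 1719 and 1325 after tMCAO, a log2 fold change of 1.04. In each of these genes the libraries of the groups were far apart.

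Mrps18b rose without its homologues being called. It is 1 of 3 homologous genes whose products occupy different places in the mitochondrial ribosome. It had 85, 92 and 90 normalized counts in sham and 236, 255 and 195 after tMCAO at 24 h (log2 fold change 1.34 ± 0.16, limma adjusted p = 6.19e-06). The log2 fold changes of Mrps18a and Mrps18c were 0.49 and 0.57, with limma adjusted p = 0.0029 and 0.00588 and below the fold limit. The difference among the homologues was not itself tested. Mrpl12, which also binds the mitochondrial RNA polymerase, rose by 0.83 on the log2 scale, from 578, 670 and 641 normalized counts to 1226, 1134 and 1000. Mrps36, by its later assignment no ribosomal protein, rose by 0.93 at low counts of 37, 45 and 27 in sham and 73, 67 and 66 after tMCAO. Mrpl57 rose by 0.89, while Mrps12, a protein of the decoding centre, and Mrpl41 had 0.53 and 0.44 and were not called.

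Mrpl1, a protein of the stalk at the exit site for tRNA, was the member of the mitochondrial class with the lowest fold change. It had 305, 298 and 298 normalized counts in sham and 270, 351 and 328 after tMCAO at 24 h, so that the tMCAO libraries lay on both sides of sham (log2 fold change 0.07 ± 0.13, limma adjusted p = 0.727). Mrpl49 and Mrpl44 followed with 0.18 and 0.20, and neither was called.

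**Figure D3:**
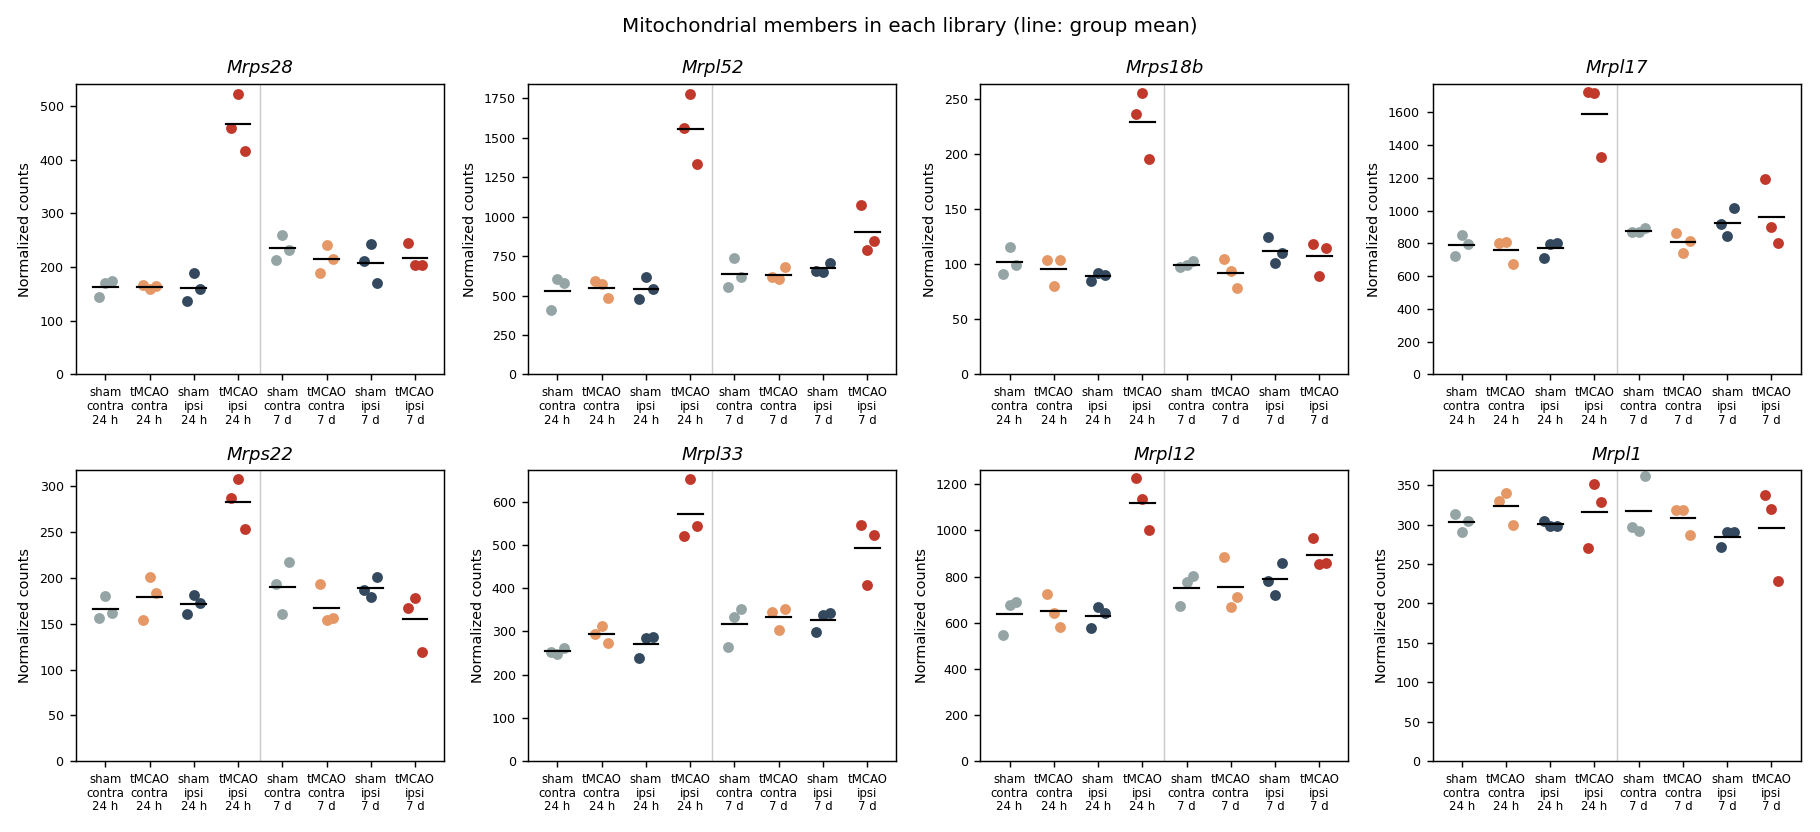
Normalized counts (linear axis from 0) of Mrps28, Mrpl52, Mrps18b, Mrpl17, Mrps22, Mrpl33, Mrpl12 and Mrpl1 in each library, by group, with 1 point per library and a line at the group mean. Mrps28, Mrpl52 and Mrps18b stand highest in the 3 tMCAO ipsilateral libraries at 24 h, with the libraries of Mrps28 and Mrps18b mixed with sham at 7 days, while those of Mrpl1 overlap between tMCAO and sham at both times.

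The contralateral hemisphere of the same mice gave a second reference for the same tMCAO ipsilateral libraries, so that the comparison is not independent of the one with sham. At 24 h 83 cytosolic and 76 mitochondrial members were higher on the ipsilateral side (median log2 fold changes 0.45 and 0.44), the exceptions being Rps27 (-0.08) and Mrpl1 (-0.04). Of the members, 24 cytosolic and 17 mitochondrial genes were called higher and 0 lower, against 8.51% of all tested genes called higher and 5.14% lower. No overlap of the libraries was found for 73 cytosolic and 68 mitochondrial members, against 21.7% of all tested genes that were higher without overlap. Rps2 had 1.45, Rpsa 1.10, Mrps28 1.50, Mrpl52 1.50 and Mrps18b 1.25 on the log2 scale, all called. After the length and GC correction 9 cytosolic members were called. Of the 15982 tested genes 1898 were then called in either direction, a share close to that of the cytosolic class. The corrected count thus does not set the cytosolic class apart from all tested genes.

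At 7 days the classes parted. Against sham, 81 of 84 cytosolic members were still higher in the ipsilateral tMCAO libraries, with a median log2 fold change of 0.38, but of the mitochondrial members 60 of 77 were, with a median of 0.11, against 0.02 over all tested genes. Of the cytosolic members 1 was called higher (Rps20), of the mitochondrial members 0, and 0 of either class lower. Over all tested genes 3.27% were called higher and 9.95% lower. With no limit on the fold change 31 cytosolic and 3 mitochondrial members had an adjusted p under 0.05, all higher, against 6.07% of all tested genes. Libraries did not overlap, with tMCAO the higher, for 27 cytosolic and 11 mitochondrial members, against 13.4% of all tested genes. The spread of the fold changes within the cytosolic class was smaller than at 24 h, with an SD over the members of 0.13 against 0.30 on the log2 scale.

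Rps20, of the head of the small subunit, had 6061, 6319 and 7509 normalized counts in sham and 12420, 8217 and 9684 after tMCAO at 7 days. The lowest tMCAO library lay above the highest sham library, and the log2 fold change was 0.59 ± 0.16 (limma adjusted p = 0.0127), just above the limit. Rpl32 and Rpl36 of the large subunit both had 0.57, with adjusted p under 0.05 as well, and lay just under it. Rps28 and Rps19 of the small subunit, the latter a gene of Diamond-Blackfan anaemia, had 0.56 and 0.52. Rplp0 had 7176, 6966 and 8766 in sham and 13390, 9722 and 9719 after tMCAO (0.51 ± 0.15, limma adjusted p = 0.0268). Rps2 had 4774, 4783 and 5864 in sham and 7736, 6041 and 5714 after tMCAO, with overlap of the groups (0.33 ± 0.15, limma adjusted p = 0.138). Its tMCAO group mean was lower than at 24 h (6497 against 11930), and its sham mean was higher (5140 against 3969). In most of these genes the first tMCAO library was the highest, and the number of cytosolic members called was 0 without it and 20 without the second tMCAO library. Leaving out the third sham library gave 15. With these libraries left out in turn, 1460, 2017 and 1875 of the 15982 tested genes were called in either direction.

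The members with a sign opposite to their class at 7 days were few in the cytosolic class. They were Rps19bp1 (log2 fold change -0.13), which is no ribosomal protein, Rpl7l1 (-0.05) and Rps27rt (-0.00), and none of them was called. In the mitochondrial class 17 members had a negative value, the lowest being Mrps2 (-0.35), Mrps22 (-0.31) and Mrps6 (-0.25), and none was called. The highest value of that class was that of Mrpl33, a small protein of the large subunit, with 299, 339 and 342 normalized counts in sham and 547, 408 and 524 after tMCAO. Its groups did not overlap, and its log2 fold change of 0.58 ± 0.13 (limma adjusted p = 0.0033) lay just under the limit. Mrpl52, among the most changed at 24 h, had 658, 652 and 707 in sham and 1072, 787 and 845 after tMCAO (0.41 ± 0.15, limma adjusted p = 0.0722).

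Against the contralateral hemisphere at 7 days all 84 cytosolic members were higher on the ipsilateral side (median log2 fold change 0.41) and 67 of the 77 mitochondrial members (0.12). Rps28 (0.60 ± 0.16, limma adjusted p = 0.01) and Rps19 (0.59 ± 0.17, limma adjusted p = 0.0191) were called higher, and no mitochondrial member, against 3.03% of all tested genes called higher and 9.98% lower. Rps28 had 1557, 1431 and 2029 normalized counts on the contralateral and 3025, 1914 and 2705 on the ipsilateral side, and Rps19 had 3980, 3803 and 5003 and 7165, 4969 and 7224. In both genes the second ipsilateral library lay below the third contralateral one. An adjusted p under 0.05 at any fold was reached by 31 cytosolic and 3 mitochondrial members, against 5.04% of all tested genes that were higher. Libraries did not overlap, with the ipsilateral side the higher, for 20 cytosolic and 11 mitochondrial members, against 10.7% of all tested genes. Without the first ipsilateral tMCAO library 0 cytosolic members were called, and without the second 23. Of the 15982 tested genes 1600 and 1992 were then called in either direction.

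**Figure D4:**
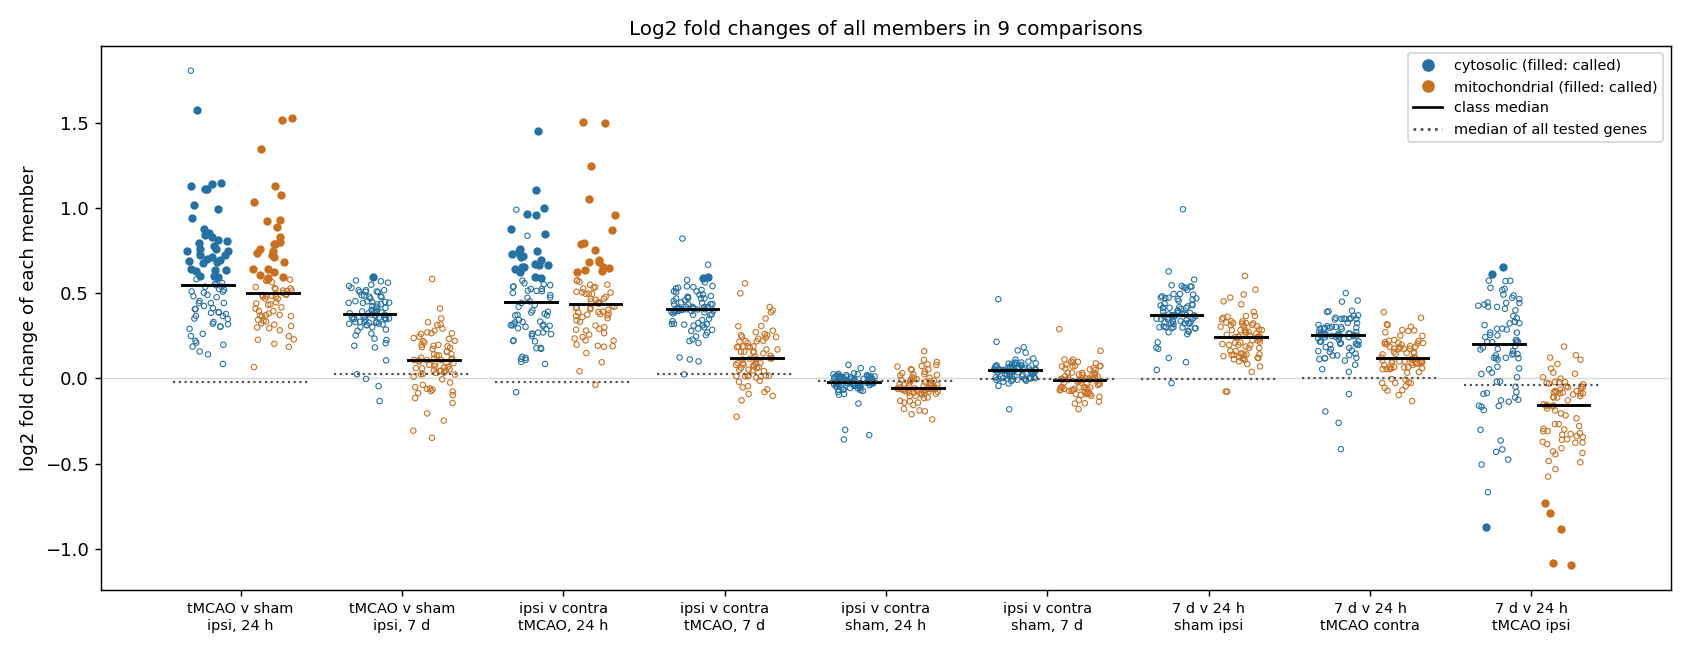
Log2 fold change of each of the 84 cytosolic and 77 mitochondrial members (1 point a gene, filled where called) in 9 comparisons, with the class median as a solid and the median of all tested genes as a dotted line. For tMCAO against sham both classes lie above 0 at 24 h (medians 0.55 and 0.50), and at 7 days the cytosolic class has a median of 0.38 and the mitochondrial class of 0.11.

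Whether the stroke effect itself differed between the time points was tested as the difference of the 2 log2 fold changes against the sham group of the same time (limma, 7 days minus 24 h). It was negative for all 77 mitochondrial members, with a median of -0.40, and for 61 of the 84 cytosolic members, with a median of -0.19, against -0.04 over all tested genes. Of the mitochondrial members 20 were called lower and 0 higher, and of the cytosolic members 6 lower and 0 higher, against 5.68% of all tested genes called lower and 2.43% higher, so that the cytosolic count lies near that of all genes. With the length and GC correction the cytosolic median was 0.012 and the mitochondrial median -0.28, against 0.082 over all tested genes. Then 8 mitochondrial members were called, against 1262 of the 15982 tested genes in either direction. The cytosolic members called were Rps2 (-1.25 ± 0.21, limma adjusted p = 0.000971), Rps19bp1 (-0.94), Rpl7a (-0.81), Rps27l (-0.80), Rpsa (-0.74) and Rpl7l1 (-0.60). Of these, Rps2, Rpl7a, Rpsa and Rps27l were among the 5 cytosolic members with the largest called rise at 24 h, and the fold at 24 h enters the difference.

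Among the mitochondrial members the largest differences between the time points were those of Mrps28 (-1.46 ± 0.21, limma adjusted p = 0.000249), Mrps18b (-1.41), Mrps36 (-1.13), Mrpl52 (-1.10) and Mrps22 (-1.02). Mrps22, of the small subunit, had 161, 181 and 173 normalized counts in sham and 287, 308 and 253 after tMCAO at 24 h, but 187, 179 and 201 in sham and 167, 178 and 119 after tMCAO at 7 days. Its tMCAO libraries stood above all sham libraries at 24 h and below all of them at 7 days, where the fold change was not called (limma adjusted p = 0.189). Mrps28 had 211, 242 and 171 in sham and 244, 203 and 204 after tMCAO at 7 days, with the groups mixed. The number of mitochondrial members called was 30 without the first tMCAO ipsilateral library at 7 days and 12 without the first sham ipsilateral library at 24 h. Of the 15982 tested genes 1424 and 782 were then called in either direction.

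Set directly against each other, the tMCAO ipsilateral libraries at 7 days and 24 h gave the classes opposite medians, 0.20 for the cytosolic and -0.16 for the mitochondrial class, against -0.04 over all tested genes. With the length and GC correction the mitochondrial median was -0.018, against 0.082 over all tested genes. Of the cytosolic members 62 were higher at 7 days and of the mitochondrial members 9. Of the cytosolic members 2 were called higher and 1 lower, and of the mitochondrial members 5 were called lower, against 3.72% of all tested genes called higher and 8.44% lower. Rps14 had 17666, 11787 and 16184 normalized counts at 7 days and 10055, 9426 and 9111 at 24 h (log2 fold change 0.65, limma adjusted p = 0.0112). Rps21 had 14097, 9564 and 10738 against 6859, 8154 and 7264 (0.61, limma adjusted p = 0.00948). Both were higher at 7 days without overlap. Their sham ipsilateral group means were also higher at 7 days than at 24 h (Rps14 10821 against 8558, Rps21 8753 against 6015). This comparison therefore does not separate the time after stroke from the shift in sham. Rps2 (-0.87), Mrps28 (-1.10), Mrps18b (-1.09), Mrps22 (-0.88), Mrpl52 (-0.79) and Mrpl17 (-0.73) were lower. The number of cytosolic members called, in either direction, was 13 with the length and GC correction, 11 with median centring and 16 without the second tMCAO library of 7 days. Of the 15982 tested genes 2105, 1972 and 1604 were called under these settings. Rps14 and Rps21 each lost the call when 1 library was left out.

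**Figure D5:**
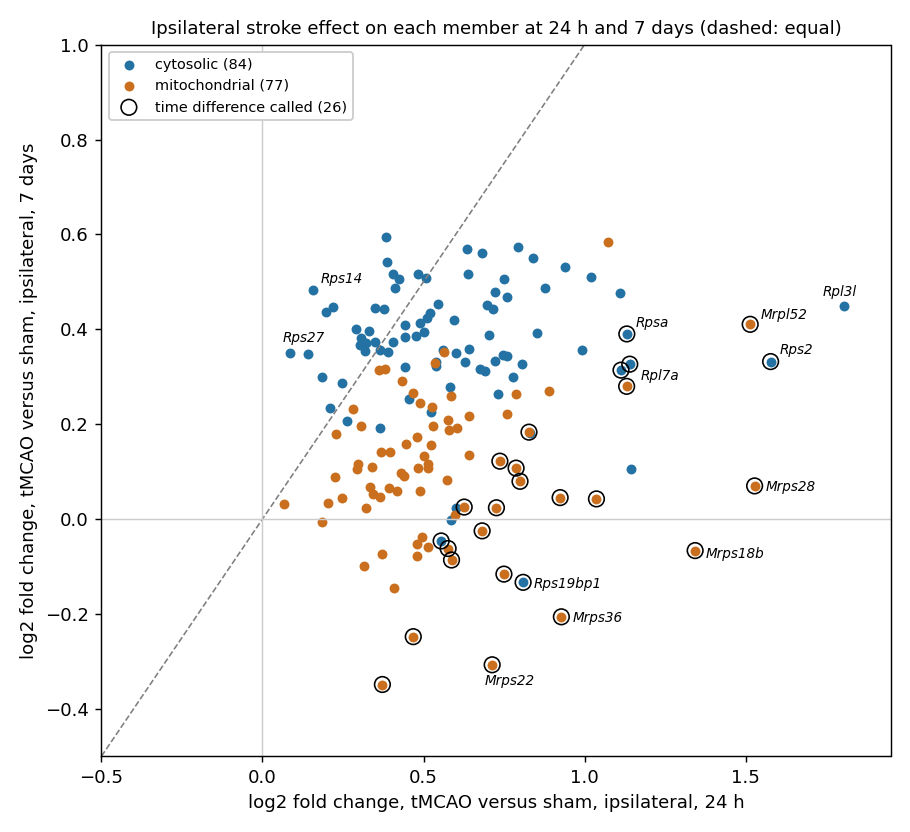
Log2 fold change of tMCAO against sham in the ipsilateral hemisphere at 24 h (x axis) and at 7 days (y axis) for each of the 161 members, coloured by class, with a dashed line where both are equal and a ring around the 26 members whose effect differed between the times. The mitochondrial members (median 0.50 on the x and 0.11 on the y axis) lie below the dashed line, and the cytosolic members lie on both sides of it (0.55 and 0.38).

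The members also differed between the time points in sham mice. In the sham ipsilateral hemisphere 83 cytosolic members had a higher value at 7 days than at 24 h (median log2 fold change 0.37) and 75 mitochondrial members (0.24). The libraries did not overlap, with 7 days the higher, for 73 cytosolic and 47 mitochondrial members, against 11.9% of all tested genes, although 0 members were called and 0.476% of all tested genes were called. In the sham contralateral hemisphere the medians were 0.30 and 0.19 (82 and 76 members higher, 0 called, 0.332% of all tested genes called). In the contralateral hemisphere of tMCAO mice they were 0.25 and 0.12 (80 and 65 members higher, 0 called, 0% of all tested genes called). The groups of the 2 time points come from different mice. The other control comparisons were near 0. Between the sham hemispheres the medians were -0.02 and -0.06 at 24 h and 0.05 and -0.01 at 7 days (cytosolic and mitochondrial), with 0 members called and 0% of all tested genes at both times. Contralateral tMCAO against sham gave 0.08 and 0.03 at 24 h (0 members and 0% of all tested genes called) and 0.03 and -0.04 at 7 days (0 members and 0.0313% called).

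Other genes of the translation machinery, from lists written down with earlier results known, are set beside the members for tMCAO against sham in the ipsilateral hemisphere, where 10% of all tested genes were called higher at 24 h and 3.27% at 7 days. Of the cytosolic ribosomal proteins with other names, Rack1, a scaffold on the small subunit, was called at 24 h (0.64), while Fau (0.19), made as a fusion with a ubiquitin-like part, was not. Of the 6 tested mitochondrial ribosomal proteins under other names (1 of them the member Mrpl58, a peptidyl-tRNA hydrolase), 2 were called, Gadd45gip1 (0.60) and Mrpl58 (0.73). Of 19 cytosolic translation factors and other known TOP mRNAs 16 were higher at 24 h and 4 called higher: the nucleolar protein Npm1 (0.87), the elongation factor subunit Eef1g (0.70), Hnrnpa1 (0.69) and Btf3 (0.63). Eif4b (-0.30), Tpt1 (-0.24) and Eif3f (-0.18) had negative values and were not called. The median of this list was 0.38 at 24 h and 0.27 at 7 days, with 18 members higher and 0 called at 7 days.

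Of the 22 tested mitochondrial translation factors and assembly proteins 19 were higher at 24 h and 3 were called: the elongation factors Tufm (0.78) and Tsfm (0.82) and the GTPase Noa1 (0.80), a share near the 10% of all tested genes. The median of this list was 0.24 at 24 h and 0.05 at 7 days, when 0 were called. Of 13 listed mRNAs of the mitochondrial genome itself 7 were in the table and tested. All 7 were higher at 24 h (median 0.54), and 0 were called. Their mean log2 level was 14.31, 14.22 and 14.39 in sham and 15.37, 14.58 and 14.48 in tMCAO ipsilateral libraries at 24 h. On the contralateral side at 24 h it lay between 14.09 and 14.60 in sham and between 14.47 and 15.06 in tMCAO libraries. Of 14 genes of the mTORC1 pathway 1 was called, Eif4ebp1, an inhibitor of cap-dependent translation (1.09), and the median was 0.08. The 45 tested rows with a ribosomal protein name and a pseudogene biotype, whose reads cannot be told from those of the parent genes with certainty, had a median of 0.52 at 24 h with 10 called higher, and 0.35 at 7 days with 1 called higher.

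Markers of other cells were read in the same comparisons, in which 10% of all tested genes were called higher and 8.23% lower at 24 h, and 3.27% higher and 9.95% lower at 7 days. All 8 listed markers of neutrophils and monocytes were called higher at 24 h (median log2 fold change 2.68), and their mean log2 level lay between 6.04 and 7.38 in sham and between 9.03 and 9.54 in tMCAO ipsilateral libraries. At 7 days 2 of 8 were called higher, with levels of 6.16 to 7.79 in sham and 7.10 to 8.92 after tMCAO. Neuronal markers were called lower, 4 of 7 at 24 h (levels of 9.14 to 9.18 in sham and 7.66 to 8.19 after tMCAO) and 7 of 7 at 7 days (8.66 to 9.63 and 6.05 to 6.82). Proliferation markers were called higher, 1 of 5 at 24 h (3.27 to 3.63 and 3.66 to 5.09) and 5 of 5 at 7 days (3.29 to 3.45 and 5.58 to 5.99). At 24 h 3 of 6 astrocyte, 2 of 6 oligodendrocyte, 1 of 8 pericyte and mural cell and 1 of 5 microglia markers were called lower, and at 7 days 2, 1 and 0 of the first 3 lists were, and 1 microglia marker was called higher. Of the choroid plexus markers 0 of 6 were called at 24 h and 3 lower at 7 days, and of the 2 tested T cell markers 0 were called at 24 h and 2 lower at 7 days. Of the 10 endothelial markers 1 was called higher and 2 lower at 24 h and 0 at 7 days, and their mean log2 level lay between 14.22 and 14.41 in sham and 14.19 and 14.36 after tMCAO at 24 h, and between 14.34 and 14.45 and 14.45 and 14.64 at 7 days. The part of these other cells in the change of the ribosomal protein genes was not tested.

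The members shared some letters near their starts that the rule had not used. A run of C and T at the start, defined as above, was found in 42.1% of the 76 promoters matched to cytosolic and in 23% of the 74 matched to mitochondrial members, against 19.8% of the promoters of all tested genes and 18.3% of all promoters in the RefSeq table. Within 300 bases around the start (250 before and 50 after, both strands), the letters CCGGAAG, the core bound by ETS factors, were found in 35.5% of the cytosolic and 33.8% of the mitochondrial promoters, against 15.2% of the promoters of tested genes and 8.86% of all. The letters AAGATGGCG, bound by YY1, were found in 7.89% and 10.8%, against 2.55% and 1.4%. The letters GCATGCG, the inner part of an NRF1 site, were found in 6.58% and 10.8%, against 5.68% and 3.58%. The GC box GGGCGG was found in 60.5% and 52.7%, against 59.8% and 35.7%, and TATAAA in 9.21% and 6.76%, against 7.54% and 13.6%. A match is a description of these letters and not of binding.

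Members with and without a run of C and T at the start were set side by side. A member counted as having a run if any of its annotated starts did. A window without a run does not show that the mRNA lacks a TOP motif, because the starts in use were not measured. The median log2 fold change at 24 h was 0.59 in the 30 cytosolic members with a run and 0.59 in the 34 with a window and no run, with 15 called in each. In the mitochondrial class it was 0.52 in the 17 members with a run (7 called) and 0.48 in the 51 without (13 called). Among the windows printed above, Rps2 and Rpl7a hold a run and Rpsa and Rplp0 hold none, and all 4 genes rose at 24 h, while Rps27 holds a run of 9 bases and was not called. For the ETS letters the medians were 0.70 in the 26 cytosolic members with a match (14 called) and 0.57 in the 38 without (16 called). At 7 days these medians were 0.37 and 0.38. For the other letters the cytosolic medians at 24 h were 0.62 and 0.50 (GC box), 0.45 and 0.59 (NRF1) and 0.37 and 0.60 (YY1). The mitochondrial medians at 24 h were 0.53 and 0.48 (ETS), 0.50 and 0.49 (GC box), 0.67 and 0.49 (NRF1) and 0.50 and 0.49 (YY1). Only 4 cytosolic members held the YY1 and 5 the NRF1 letters. No test was made of these differences.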

How the data were processed

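The authors removed adapters, aligned reads of stranded mRNA libraries with STAR to the mouse genome (mm10), dropped reads assigned to more than 1 gene and used DESeq2 for normalization. Per the labels, featureCounts was among the tools. Versions of STAR and DESeq2 differ between the sources and are not given. The deposited values are a score: the authors divided reads per gene by a size factor of the library and rounded to whole numbers, so no count model was run. A value has no counting interval, and the totals per library bound its precision.

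Groups came from the labels. Log2 values (pseudocount 1) of 15982 genes with a mean above 5 were fitted with limma 3.58.1 in R 4.3.3, with a mean-variance trend and all 24 libraries in 1 fit, and adjusted by Benjamini-Hochberg. P-values measure the spread between pools of 3 hemispheres, among the libraries kept after the authors had looked for outliers. Fold changes are on the log2(value + 1) scale, which understates changes of low genes. Class levels, shares and medians were computed without a test, in Python 3.11.15 with pandas 2.3.3 and numpy 2.4.6, and figures were drawn with matplotlib 3.10.9. A library number marks no pairing that the sources state. Deviations of same-numbered libraries correlated over 0.1 in all 3 pairs only between the sham hemispheres (0.145 to 0.410 at 24 h, 0.325 to 0.467 at 7 days), so the block stayed an alternative.

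The members and gene lists were chosen with earlier results of these data known. Genes named are, per class and comparison, the 3 highest and lowest members, those called where at most 10 were, those of fixed role, paralog pairs, extremes in level per kb, members with a sign opposite to their class, and genes of the lists. Alternatives were a pseudocount of 0.5, other filters, median centring, equal totals, a replicate block, only the compared groups, no fold limit, a correction for length and GC content (splines with 5 degrees of freedom), members without paralogs and each library left out in turn.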

Additional observations from a re-analysis of the deposited data

Results flagged for a closer look

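The effect of tMCAO against sham in the ipsilateral hemisphere differed between the time points in 6 cytosolic and 20 mitochondrial members by the limma test of the difference itself (7 days minus 24 h, adjusted p under 0.05 and a difference of more than 1.5-fold). All differences were negative. Over all tested genes 5.68% were called lower, and the cytosolic count, 6 of 84, lies near that share. In the cytosolic class they were -1.25 for Rps2, -0.94 for Rps19bp1, -0.81 for Rpl7a, -0.80 for Rps27l, -0.74 for Rpsa and -0.60 for Rpl7l1. Among the mitochondrial members with an Mrps symbol they were -1.46 for Mrps28, -1.41 for Mrps18b, -1.13 for Mrps36, -1.02 for Mrps22, -0.88 for Mrps10, -0.87 for Mrps25, -0.72 for Mrps2 and -0.72 for Mrps6. Among those with an Mrpl symbol they were -1.10 for Mrpl52, -0.99 for Mrpl17, -0.85 for Mrpl54, -0.72 for Mrpl21, -0.71 for Mrpl38, -0.70 for Mrpl58, -0.68 for Mrpl2, -0.67 for Mrpl19, -0.64 for Mrpl12, -0.64 for Mrpl16, -0.62 for Mrpl22 and -0.60 for Mrpl15. Groups of 3 libraries are too small for a search for single stray libraries.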

How the results depend on the processing

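Counts below give cytosolic before mitochondrial members called, and medians are log2 fold changes. With the correction for length and GC content, counts were 16 and 21 for tMCAO against sham at 24 h (medians 0.38 and 0.41), 5 and 1 at 7 days, 9 cytosolic for ipsilateral against contralateral at 24 h (medians 0.27 and 0.32), 6 and 1 at 7 days and 13 cytosolic for 7 days against 24 h (mitochondrial median -0.018). Over all tested genes the counts were 2597 and 2502 against sham (24 h and 7 days), 1898 and 2461 against contralateral and 2105 between the time points. This correction also moved the median over all tested genes to 0.082, both for 7 days against 24 h and for the time difference. At 7 days it moved that median from 0.025 to 0.142 against sham and from 0.026 to 0.151 against contralateral. For the time difference the cytosolic median was 0.012 and the mitochondrial median -0.28, with 8 mitochondrial members and 1262 of all tested genes called. Adding the replicate block to this correction changed the count of 8 mitochondrial members to 9 and none of the other member counts printed here. The replicate block alone moved no count by over 1.5 times (36 and 25 at 24 h against sham, 1 and 0 at 7 days). Median centring gave 5 and 1 against sham and 6 and 1 against contralateral at 7 days, a mitochondrial median of 0.36 against contralateral at 24 h, 11 cytosolic members between the time points and 13 mitochondrial members with a median of -0.29 for the time difference. The counts over all tested genes were 2173, 2125, 1972 and 1280 in the comparisons with counts, in this order. Between the time points median centring moved the median of all genes from -0.04 to 0.07. With equal totals or only the compared groups, 0 cytosolic members were called in either comparison at 7 days, and with equal totals 10 in the time difference. Of all tested genes 2066 (sham) and 2039 (contralateral) were called at 7 days with equal totals, and 1393 in the time difference. With only the compared groups 1594 and 1187 were called at 7 days. With no fold limit the counts were 60 and 68 (24 h, sham), 31 and 3 (7 days, sham), 42 and 57 (24 h, contralateral), 31 and 3 (7 days, contralateral), 22 and 20 (between time points) and 1 member for sham ipsilateral 7 days against 24 h. In the same order, 4885, 2700, 3904, 2558, 3082 and 94 of all tested genes were called. The cause of these shifts was not tested. Without the listed paralogs the cytosolic share of counts in tMCAO ipsilateral libraries at 24 h was 2.49% in place of 2.80%, as fewer genes were summed.

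Leaving out 1 library at a time, the counts ranged from 30 to 43 and 19 to 30 (24 h, sham), 0 to 20 and 0 to 1 (7 days, sham), 19 to 33 and 14 to 24 (24 h, contralateral), 0 to 23 and 0 to 2 (7 days, contralateral), 2 to 16 and 5 to 7 (between time points) and 4 to 11 and 12 to 30 (time difference, with 11 cytosolic members without the first tMCAO ipsilateral library at 7 days). In the same order, the ranges over all tested genes were 2069 to 3150, 1460 to 2053, 1612 to 2563, 1528 to 2205, 1136 to 1991 and 782 to 1444. Of the named genes, Rps20, Rps28 and Rps19 at 7 days, Rps14 and Rps21 between the time points, Rpl36al at 24 h and Rpsa, Rpl7l1 and Mrps36 in the time difference lost their call under at least 1 setting, and none of the called genes recomputed changed sign.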
